A study of Mus musculus with 6 samples.

Results

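Annexins are a family of calcium-dependent membrane proteins, and the transcripts of 9 of them, Anxa1, Anxa2, Anxa3, Anxa4, Anxa5, Anxa6, Anxa7, Anxa11 and Anxa13, were followed among 41388 genes counted by RNA-Seq in mouse liver. They were selected by gene symbol. Every mouse carried a floxed Mttp gene together with Villin-CreERT2 (Mttp f/f Villin Cre ER T2), in which the intestinal epithelial Villin promoter drives a Cre recombinase activated by tamoxifen. Mttp-IKO mice received tamoxifen for 5 days at 50 µg/g/day to delete Mttp, the microsomal triglyceride transfer protein required for chylomicron assembly, whereas controls, which the labels call wild type, were littermates given vehicle only. Male mice of 12 to 16 weeks, on a C57BL/6 background, were fed a methionine/choline-deficient (MCD) diet for 3 weeks, starting 3 weeks after the injections, and livers were taken after a 4 h fast. RNA of 3 to 4 mice was combined into each pool, and 3 such pools were sequenced per group, with 12 livers in all according to the labels. Pools of that size would need more livers than this, and the sources used here do not settle which number holds. P-values reflect the spread between pools, which understates the spread between mice.

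Each annexin has a conserved core that binds phospholipids such as phosphatidylserine when calcium is present, and a variable amino-terminal end that binds partner proteins, among them small calcium-binding proteins of the S100 family. Annexins take part in membrane repair, vesicle traffic and the organization of the cortical cytoskeleton, and Anxa1 also acts outside cells on formyl peptide receptors, through which it limits leukocyte recruitment. In liver, Anxa6 and Anxa7 are widely expressed, whereas Anxa1, Anxa2, Anxa3 and Anxa5 are known from nonparenchymal and biliary cells and from injured or fibrotic tissue.

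The promoters of Anxa1, Anxa2 and Anxa5 are shown because these members had the lowest unadjusted p-values or the widest range between pools and differ in the core motifs they hold. RefSeq promoter entries (GRCm38.p6) matched 6 of the 9 members, namely Anxa1, Anxa2, Anxa4, Anxa5, Anxa7 and Anxa11. The 120 bases before the annotated start are given 5′ to 3′ on the strand of the gene. Capitals mark motif letters found on either strand. The TATA box, which positions the start of transcription, was searched as TATAAA. For the stress-responsive factor AP-1 the motif was TGANTCA. The GC box, which binds factors of the Sp family, was searched as GGGCGG. The windows lie at chr19:20390672-20390791 on the minus strand for Anxa1, chr9:69453563-69453682 on the plus strand for Anxa2 and chr3:36475888-36476007 on the minus strand for Anxa5.
Anxa1: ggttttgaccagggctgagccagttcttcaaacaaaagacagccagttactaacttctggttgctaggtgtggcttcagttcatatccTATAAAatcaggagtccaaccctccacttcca
Anxa2: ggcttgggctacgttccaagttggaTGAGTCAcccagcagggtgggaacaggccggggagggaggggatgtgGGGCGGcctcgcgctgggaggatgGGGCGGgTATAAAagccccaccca
Anxa5: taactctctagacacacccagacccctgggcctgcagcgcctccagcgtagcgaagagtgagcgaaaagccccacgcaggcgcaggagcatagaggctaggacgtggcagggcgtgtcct

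In Anxa1 the TATAAA begins 32 bases before the start, and in Anxa2 it begins 17 bases before. The Anxa2 window also holds a TGAGTCA 95 bases before the start and GC boxes 48 and 24 bases before it, none of which overlaps another motif, and the Anxa5 window holds none of these letters. Among 32851 RefSeq windows of 250 bases before a start, 12.4% held TATAAA, 6.75% TGANTCA and 32.7% GGGCGG. In the full 250 bases, Anxa2 had 1 further GC box, Anxa11 had 3 GC boxes, the alternative starts of Anxa7 had 4 and 1, and both starts of Anxa4 had no match. The gene model behind the counts began 273 bases upstream of the RefSeq start for Anxa1 and 63 bases upstream for Anxa2. These are matches of letters only, and no binding was measured here.

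The pools held 25271585 to 36238734 reads on genes. All 9 annexins passed the filter on low counts, and 8 of them had 72 to 7978 reads in every pool, whereas Anxa13 had 18 to 70. Liver Mttp ranged from 90.4 to 186 CPM (the reads of a gene relative to the library size of the pool, scaled by TMM factors) over the 6 pools, with a log2 fold change of -0.06 (SE 0.272, adjusted p = 0.926, edgeR's quasi-likelihood test), and as the deletion was directed to the intestine this transcript does not check the labels. Control pool 2 held 553 CPM of striated muscle markers and control pool 1 held 66.5, against 0.461 to 1.03 in the other pools. In Mttp-IKO pool 3, 0.298% of the reads lay on small RNA genes, against 1.92% to 3.51% elsewhere. An alternative without control pool 2 and Mttp-IKO pool 3 together was chosen after seeing the data. The calls that it changed are given beside the lists and members they touch.

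Transcripts of 2 annexins, Anxa1 and Anxa5, were lower in Mttp-IKO liver at an adjusted p under 0.05, by 3.79-fold and 2.72-fold (edgeR, n = 3 pools per group). Over all 17287 genes tested, 4.01% were called, 3.09% as lower and 0.92% as higher. At an unadjusted p under 0.05, 4 annexins passed (Anxa1, Anxa2, Anxa3 and Anxa5), against 23% of all genes. Without control pool 2 and Mttp-IKO pool 3 together, Anxa1 and Anxa5 still passed (adjusted p of 0.00211 and 0.0109, edgeR), in a fit that called 2146 of 17444 genes. Neither passed when control pool 1, control pool 3 or Mttp-IKO pool 2 alone was left out. In that order, those fits called 24 of 17652, 21 of 17869 and 0 of 17873 genes. Anxa1 also did not pass without Mttp-IKO pool 1, in a fit that called 55 of 17943 genes. The fitted change was negative for 8 of 9 annexins, against 49.5% of all genes, and the median log2 fold change was -0.42 for the annexins and 0.01 for all genes. The pools of the 2 groups did not overlap, with Mttp-IKO lower, for 5 annexins (Anxa1, Anxa2, Anxa5, Anxa6 and Anxa7), against 16.5% of all genes; 31% of all genes had no overlap in either direction. RNA was taken from whole liver, so that fewer cells of a type and less RNA per cell cannot be told apart in any of these values.

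**Figure D1:**
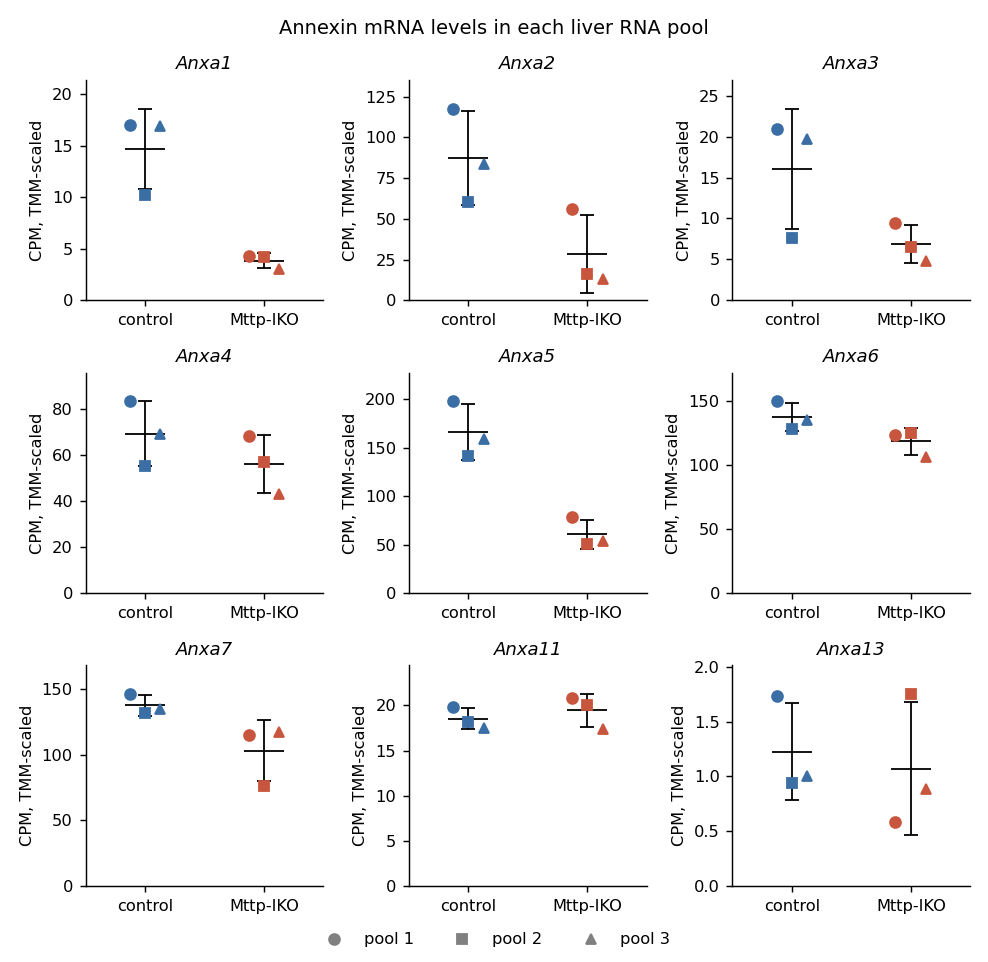
Level of each annexin mRNA in CPM (scaled by trimmed mean of M-values, linear axes starting at 0) in 3 control pools (blue) and 3 Mttp-IKO pools (red), with marker shape for the pool number, and horizontal lines and bars for the mean ± SD. For Anxa1 and Anxa5 the 3 Mttp-IKO pools lie well under every control pool, Anxa2 nearly meets between 60.6 and 55.8 CPM, and Anxa11 and Anxa13 overlap.

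Anxa1, the annexin that signals through formyl peptide receptors, had the largest fitted decrease of the 9. The gene (ENSMUSG00000024659) lies on chromosome 19 from 20373428 to 20390944 on the minus strand of GRCm38, with 13 exon blocks and 2608 nt of exon. Its level was 17.0, 10.2 and 16.9 CPM in control pools 1, 2 and 3 and 4.32, 4.25 and 3.02 CPM in the Mttp-IKO pools 1, 2 and 3. The lowest control pool stood above the highest Mttp-IKO pool, and the Mttp-IKO pools lay close together. The means were 14.7 ± 3.91 and 3.86 ± 0.732 CPM (SD, n = 3), and the log2 fold change was -1.92 (SE 0.264, adjusted p = 0.0181, edgeR), ranking 74 of 17287 genes by p. With 1 pool left out the change remained negative, but the adjusted p from edgeR was 0.0796 without control pool 1, 0.0752 without control pool 3, 0.0613 without Mttp-IKO pool 1 and 0.0998 without Mttp-IKO pool 2.

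Of the formyl peptide receptors, Fpr1 and Fpr2 were testable and neither passed by edgeR, by DESeq2 or at an unadjusted p under 0.05. Fpr1, the more abundant of the pair and a receptor for bacterial and mitochondrial formylated peptides, had 4.96 ± 1.79 CPM in controls and 3.29 ± 1.42 in Mttp-IKO (log2 fold change -0.59, adjusted p = 0.423, edgeR). Fpr2 had a log2 fold change of -0.77 (adjusted p = 0.555, edgeR), and Fpr3 had 0 reads in every pool, below a limit of 3 reads or 0.0744 to 0.126 CPM, which covers counting error only. The spans of Fpr2 and Fpr3 overlap on the plus strand, and ambiguous reads were not counted. Reads of a shared stretch would be missing from both, so 0 reads do not show that Fpr3 was absent.

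Anxa5, which binds phosphatidylserine exposed on dying cells and is used as a probe for them, was the most abundant annexin mRNA of control liver per length. The gene (ENSMUSG00000027712) lies on chromosome 3 from 36448925 to 36475843 on the minus strand, with 13 exon blocks and 1678 nt of exon. Control pools 1, 2 and 3 had 198, 141 and 159 CPM, and Mttp-IKO pools 1, 2 and 3 had 78.2, 50.8 and 54.1 CPM. No Mttp-IKO pool came near the controls, and pool 1 was the highest of its group in both. The means were 166 ± 29.0 and 61.0 ± 15 CPM (SD, n = 3), with a log2 fold change of -1.44 (SE 0.224, adjusted p = 0.0208, edgeR). The adjusted p from edgeR was 0.0920 without control pool 1, 0.0834 without control pool 3 and 0.109 without Mttp-IKO pool 2, with the change negative in each.

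Among 9 genes of phosphatidylserine recognition, Axl was lower, Timd4 was higher and 7 did not pass, with a median log2 fold change of -0.59. Axl, a receptor tyrosine kinase that binds phosphatidylserine through its ligand Gas6, had 153, 88.5 and 134 CPM in controls against 56.9, 50.5 and 52.7 CPM in Mttp-IKO (log2 fold change -1.23, SE 0.217, adjusted p = 0.0292, edgeR). Timd4, a phosphatidylserine receptor of resident Kupffer cells, went the opposite way, with 4.44, 5.21 and 4.56 CPM in controls and 14.2, 9.43 and 8.22 CPM in Mttp-IKO (log2 fold change 1.16, SE 0.242, adjusted p = 0.0425, edgeR). Pools of the 2 groups did not overlap for either gene. The call of Timd4 was lost with total-count scaling, limma-voom and the replicate block (adjusted p of 0.0601, 0.0583 and 0.0611) and on leaving out any pool but Mttp-IKO pool 3 (0.0695 to 0.186), with the difference positive in each. Mfge8, a secreted bridge between phosphatidylserine and integrins and the most abundant of the list per length in controls, had a log2 fold change of -1.17 without passing (adjusted p = 0.0883, edgeR).

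Anxa2, which forms a heterotetramer with S100a10 and binds plasminogen and tissue plasminogen activator at the cell surface, had the widest relative spread among Mttp-IKO pools, with a coefficient of variation of 84.1%. The gene (ENSMUSG00000032231) lies on chromosome 9 from 69453620 to 69491795 on the plus strand, with 15 exon blocks and 3731 nt of exon. Its level was 118, 60.6 and 83.9 CPM in control pools 1, 2 and 3 and 55.8, 16.3 and 13 CPM in the Mttp-IKO pools 1, 2 and 3. Mttp-IKO pool 1 lay next to control pool 2, while the other Mttp-IKO pools were far under both. The means were 87.4 ± 28.7 and 28.4 ± 23.8 CPM (SD, n = 3), and the log2 fold change of -1.62 did not pass (SE 0.540, adjusted p = 0.13, edgeR). Without Mttp-IKO pool 1 the log2 fold change was -2.58 (adjusted p = 0.0465, edgeR), and DESeq2 called Anxa2 with all pools (adjusted p = 0.0172). The antisense gene Gm16144 overlaps Anxa2 and had 4 to 49 reads; because use of the strand is not stated, reads of the overlap cannot be told apart.

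Of 4 S100 partners, none passed by edgeR (2 at an unadjusted p under 0.05, 1, S100a11, by DESeq2, and none by limma-voom). The pools did not overlap, with Mttp-IKO lower, for 3 of them, against 16.5% of all genes. S100a4, a calcium-binding protein of motile cells, had 114, 66 and 126 reads in controls against 32, 36 and 0 in Mttp-IKO, and passed without control pool 2 and Mttp-IKO pool 3 together (log2 fold change -1.58, adjusted p = 0.0238, edgeR). S100a6 had 6 reads in Mttp-IKO pool 3 and 116 to 258 in the other pools, and did not pass in that fit. Mttp-IKO pool 3 was also the pool with the lowest share of reads on small RNA genes, and a tie to these low counts was not tested. The median log2 fold change of the 4 S100 partners was -1.20. S100a11, the binding partner of Anxa1 and the most abundant of these per length, had 72.3, 33.4 and 53.2 CPM in controls against 37.8, 14.1 and 8.98 CPM in Mttp-IKO (log2 fold change -1.38, SE 0.513, adjusted p = 0.164, edgeR), with the highest Mttp-IKO pool above the lowest control pool. S100a10, the light chain of the Anxa2 complex, had 47.3, 52.4 and 48.1 CPM in controls against 43.7, 14.7 and 14.4 CPM in Mttp-IKO (log2 fold change -1.02, SE 0.410, adjusted p = 0.190, edgeR). As for Anxa2, Mttp-IKO pool 1 was the high one of its group.

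The ratio of Anxa2 to S100a10 within a pool does not depend on how the pool was scaled. It was compared as the log2 of the CPM ratio. A fixed gene length cancels between groups, but a length bias that differs between pools does not. The log2 ratio of Anxa2 to S100a10 was 1.32, 0.21 and 0.80 in control pools and 0.35, 0.14 and -0.15 in Mttp-IKO pools, with overlap. The mean difference was -0.66 (exact two-sided permutation p = 0.2, where 0.1 is the smallest p that 3 against 3 pools allow; 0.3 after adjustment over the 3 ratios and shares tested this way). The log2 ratio of Anxa1 to S100a11 was -2.09, -1.72 and -1.66 in controls and -3.13, -1.73 and -1.57 in Mttp-IKO. Its mean difference was -0.32 (exact permutation p = 0.8, adjusted 0.8) and became 0.17 without Mttp-IKO pool 1. With a length trend over genes removed, the difference was -0.81 for Anxa2 to S100a10 and -0.65 for Anxa1 to S100a11 (exact permutation p = 0.2 for each).

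In the plasminogen system, to which Anxa2 belongs as a surface receptor, both activators were lower and the other 4 of 6 genes did not pass, with a median log2 fold change of -0.99. Plau, urokinase, had 13.4, 7.15 and 13.7 CPM in controls against 2.10, 2.57 and 1.89 CPM in Mttp-IKO (log2 fold change -2.38, SE 0.301, adjusted p = 0.0166, edgeR). Plat, tissue plasminogen activator, had 8.98, 3.60 and 4.56 CPM against 2.10, 1.41 and 1.26 CPM (log2 fold change -1.84, SE 0.400, adjusted p = 0.0476, edgeR). Plg, plasminogen itself, a hepatocyte product and the most abundant of the list, had 829, 1428 and 1130 CPM in controls and 1763, 2222 and 2196 CPM in Mttp-IKO (log2 fold change 0.87, SE 0.250, adjusted p = 0.0937, edgeR). The pools of the groups did not overlap for Plau, Plat or Plg, and Plg differed in the opposite direction without passing.

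Anxa3, an annexin known from biliary cells and phagocytes, overlapped between groups. The gene (ENSMUSG00000029484) lies on chromosome 5 from 96793385 to 96845968 on the plus strand, with 13 exon blocks and 1597 nt of exon. Control pools 1, 2 and 3 had 20.9, 7.62 and 19.7 CPM, and Mttp-IKO pools 1, 2 and 3 had 9.41, 6.48 and 4.82 CPM. Control pool 2 lay within the Mttp-IKO range, and the other control pools were far above it. The means were 16.1 ± 7.35 and 6.91 ± 2.32 CPM (SD, n = 3), with a log2 fold change of -1.22 that did not pass (SE 0.401, adjusted p = 0.128, edgeR). Without control pool 2, the pool with the most striated muscle transcripts, it was -1.57 (adjusted p = 0.0328, edgeR). Without control pool 2 and Mttp-IKO pool 3 together it was -1.36 (adjusted p = 0.0101, edgeR). DESeq2 called it with all pools (adjusted p = 0.0334).

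Anxa4, Anxa6 and Anxa7, annexins of membrane traffic, were abundant, and their fitted decreases did not pass. Anxa4 (ENSMUSG00000029994, chromosome 6 from 86736840 to 86793584, minus strand) is a protein of epithelial apical membranes and had 83.2, 55.2 and 69.2 CPM in controls against 68.1, 56.8 and 43.1 CPM in Mttp-IKO, with overlap. Its log2 fold change was -0.31 (SE 0.221, adjusted p = 0.445, edgeR).

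Anxa6 (ENSMUSG00000018340, chromosome 11 from 54979108 to 55033445, minus strand, 26 exon blocks) carries a duplicated annexin core and acts in endosomal cholesterol transport. It had 149.5, 128 and 135 CPM in controls against 123, 125 and 107 CPM in Mttp-IKO, with coefficients of variation of 8.09% and 8.65%. The groups did not overlap but were separated by a narrow gap, and the log2 fold change was -0.22 (SE 0.155, adjusted p = 0.440, edgeR).

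Anxa7 (ENSMUSG00000021814, chromosome 14 from 20455261 to 20480133, minus strand), also called synexin and a promoter of vesicle fusion, had 146, 131 and 135 CPM in controls and 115, 76.1 and 117 CPM in Mttp-IKO. The groups did not overlap, and Mttp-IKO pool 2 was well under the others. The log2 fold change was -0.42 (SE 0.199, adjusted p = 0.257, edgeR).

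Anxa11 and Anxa13 had overlapping pools and changes near 0 relative to their errors. Anxa11 (ENSMUSG00000021866, chromosome 14 from 25842156 to 25886804, plus strand), which tethers RNA granules to lysosomes, was the 1 member with a positive fitted change, 0.07 on the log2 scale (SE 0.150, adjusted p = 0.815, edgeR), and this sign turned to -0.11 when libraries were scaled by total counts alone. Its values were 19.8, 18.2 and 17.5 CPM in controls and 20.9, 20.0 and 17.4 CPM in Mttp-IKO. The antisense gene Anxa11os overlaps it, with 44 to 79 reads.

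Anxa13 (ENSMUSG00000055114, chromosome 15 from 58341874 to 58364148, minus strand), an annexin of intestinal and renal epithelium annotated in the deposited table as a processed transcript, was at the low end of detection with 70, 34 and 32 reads in control pools and 18, 51 and 21 in Mttp-IKO pools. These reads corresponded to 1.74, 0.943 and 0.999 CPM and 0.580, 1.75 and 0.881 CPM. The lowest and the highest pool were both Mttp-IKO, and the log2 fold change was -0.20 (SE 0.477, adjusted p = 0.839, edgeR), turning to 0.12 without control pool 1 and 0.11 without Mttp-IKO pool 1.

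**Figure D2:**
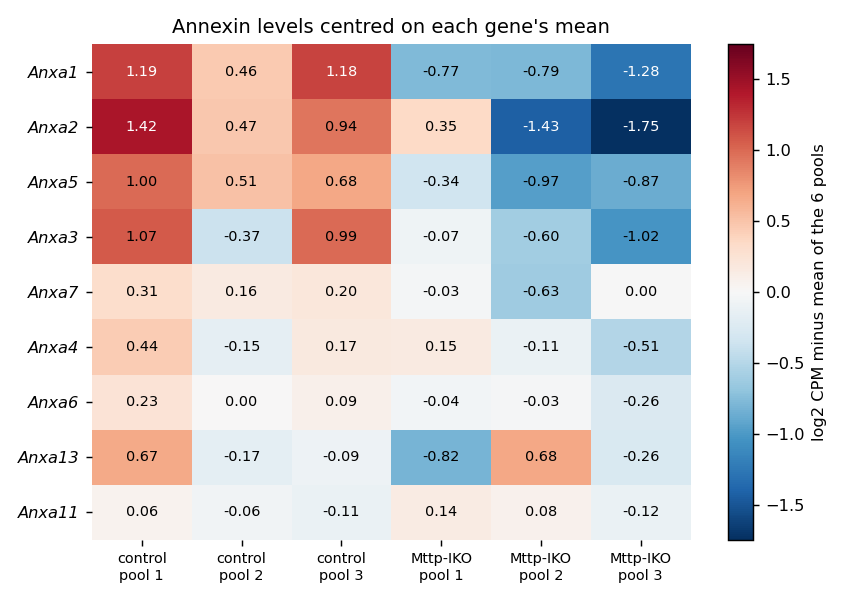
Colour and printed number give the log2 CPM of each annexin (rows, ordered by fitted change) in each pool (columns) minus the mean of that gene over the 6 pools. The top 4 rows hold the widest range, from 1.42 to -1.75 for Anxa2, Mttp-IKO pool 1 stays near 0 for Anxa3, and Anxa11 stays between -0.12 and 0.14.

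Most annexins ranked the control pools alike, and they ranked the Mttp-IKO pools less alike. Control pool 1 was the highest control pool for 9 of 9 members, and control pool 2 was the lowest for 8 of 9, Anxa11 being the exception. Among Mttp-IKO pools, pool 1 was the highest for 6 members and pool 3 the lowest for 6. Members of a pool share its library and its cells, so these counts describe the pools and are no independent measurements.

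Levels were compared between annexins as RPKM, the CPM per kilobase of exon. In control liver Anxa5 led with 98.9 ± 17.3 RPKM, followed by Anxa6 with 46.9 ± 3.80 and Anxa7 with 46.3 ± 2.57, which overlapped each other but not Anxa5. Anxa2 (23.4 ± 7.69), Anxa4 (15.2 ± 3.08), Anxa3 (10.1 ± 4.6), Anxa1 (5.63 ± 1.5) and Anxa11 (4.47 ± 0.281) came next, each overlapping its neighbour in this order, and Anxa13 was last at 1.34 ± 0.483 (RPKM, SD, n = 3). In Mttp-IKO liver Anxa6 (40.4 ± 3.49), Anxa5 (36.4 ± 8.91) and Anxa7 (34.7 ± 7.82) overlapped one another. Anxa4 (12.3 ± 2.75), Anxa2 (7.6 ± 6.39), Anxa11 (4.70 ± 0.435) and Anxa3 (4.32 ± 1.46) followed as a chain of overlapping neighbours, under which lay Anxa1 (1.48 ± 0.281) and Anxa13 (1.17 ± 0.663).

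The summed level of the 9 annexins was 294, 214 and 248 RPKM in control pools 1, 2 and 3 and 171, 128 and 130.5 RPKM in Mttp-IKO pools 1, 2 and 3, with every Mttp-IKO pool under every control pool. Anxa5 made up 40.1%, 39.2% and 38.2% of this sum in controls and 27.3%, 23.7% and 24.7% in Mttp-IKO. The share of Anxa6 was 18.8 ± 1.49% in controls and 28.6 ± 4.39% in Mttp-IKO, and that of Anxa11 was 1.80 ± 0.227% and 3.32 ± 0.425%. Shares sum to a whole within a pool, so a lower share of Anxa5 goes with higher shares of members such as Anxa6 and Anxa11, whose fitted changes were smaller. For Anxa2 the share was 10.7%, 7.58% and 9.05% in controls and 8.77%, 3.41% and 2.67% in Mttp-IKO, a mean difference of -4.17 percentage points (exact two-sided permutation p = 0.2, adjusted 0.3).

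**Figure D3:**
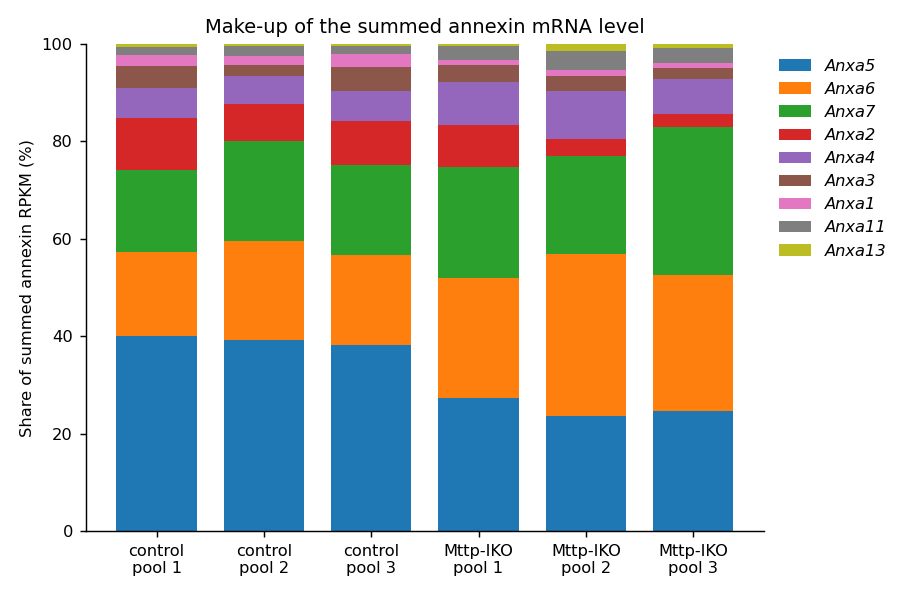
Stacked bars give the share of each annexin in the summed RPKM of the 9 members (percent, 0 to 100) in each of the 6 pools. The Anxa5 segment takes 38.2% to 40.1% of each control pool and 23.7% to 27.3% of each Mttp-IKO pool, and the Anxa6 segment is wider in Mttp-IKO pools.

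Among 7 scaffold, repair and calcium-sensor partners of annexins, Ahnak and Myof were lower and 5 did not pass, with a median log2 fold change of -0.09. Ahnak, a giant scaffold protein bound by the Anxa2 and S100a10 complex, had 228, 224 and 217 CPM in controls against 107, 92.0 and 99.8 CPM in Mttp-IKO (log2 fold change -1.16, SE 0.151, adjusted p = 0.0175, edgeR). Myof, myoferlin, a membrane repair protein, had 74.0, 31.5 and 68.8 CPM against 14.8, 14.9 and 17.6 CPM (log2 fold change -1.88, SE 0.309, adjusted p = 0.0241, edgeR). Neither gene overlapped between groups, and the Mttp-IKO pools lay close together for both. Pdcd6, a calcium sensor that binds Anxa7 and Anxa11 and the most abundant of this list per length, had a log2 fold change of -0.02 (adjusted p = 0.968, edgeR).

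In all, 6 of the partner genes passed (Ahnak, Myof, Plau, Plat, Axl and Timd4). Leaving out a pool gave 0 passing partners without control pool 1, control pool 3 or Mttp-IKO pool 2, and 1, S100a10, without Mttp-IKO pool 1. Over all genes, these fits called 24 of 17652, 21 of 17869, 0 of 17873 and 55 of 17943. The call of Plat was also lost under limma-voom and without Mttp-IKO pool 3 (adjusted p of 0.0785 and 0.0778). Without control pool 2 and Mttp-IKO pool 3 together 16 passed, among them all 6 genes of the plasminogen system and 6 of 9 of phosphatidylserine recognition. That fit called 2146 of 17444 genes, against 694 of 17287 genes with all pools. The partner lists were chosen for their ties to annexins with earlier results of these data known, and their counts are a description.

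**Figure D4:**
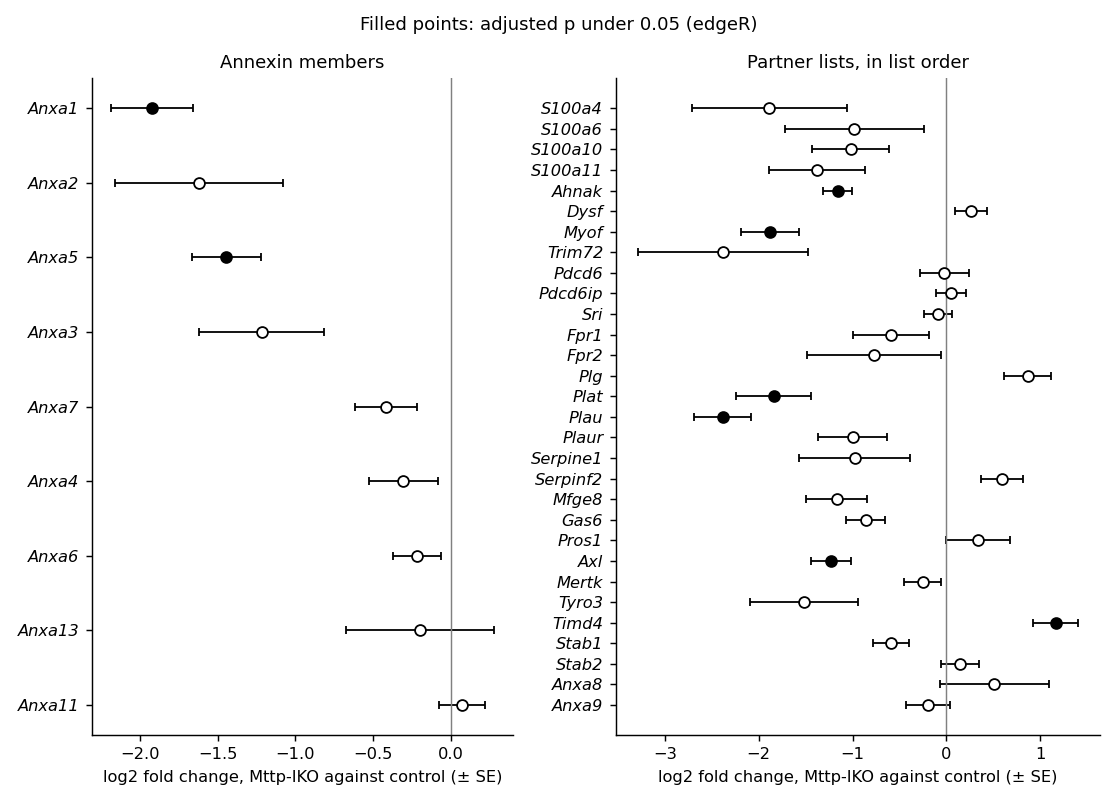
Log2 fold change ± SE (edgeR, Mttp-IKO against control, 3 pools each) of the 9 annexins (left) and of the tested partner genes in list order (right), with filled points for an adjusted p under 0.05. Anxa1 and Anxa5 are the filled annexins, Timd4 is the filled point right of 0 at 1.16, and Anxa11 lies at 0.07.

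The genes whose 6 values were most like those of Anxa2, each gene being centred on its own mean log2 CPM, were Hist1h1a, S100a11 and Abcc12, with root mean square differences of 0.139, 0.201 and 0.265 over 6 pools among 12586 genes. Hist1h1a, a linker histone gene, had 4.46, 2.08 and 3.25 CPM in controls and 1.61, 0.583 and 0.419 CPM in Mttp-IKO. The pools fell in the same order as for Anxa2. Nearest to Anxa5 were Mmp23, Ly6a and Irf7, with root mean square differences of 0.116, 0.123 and 0.129. Irf7, a transcription factor of the interferon response, had 60.7, 55.2 and 53.1 CPM in controls and 31.0, 18.0 and 18.8 CPM in Mttp-IKO. Mmp23 is a membrane metalloproteinase, and Ly6a is a surface antigen induced by interferon. These genes were chosen because their pools followed those of a member that differed between groups, so their own differences are a description and no test is given.

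Markers of stellate cells and recruited macrophages differed in the same direction as most annexins. Of 7 stellate cell markers, 4 were lower, with a median log2 fold change of -1.71 and a summed level of 719 to 1105 CPM in the control pools, compared with 436 to 490.5 CPM in the Mttp-IKO pools; Dcn, the most abundant per length, did not pass (log2 fold change -0.44, adjusted p = 0.235, edgeR). Of 7 markers of recruited macrophages, 4 were lower, with a median of -2.45 and a summed level of 272 to 838 CPM in the control pools, compared with 114 to 183 CPM in the Mttp-IKO pools; Gpnmb, the most abundant per length in controls, had a log2 fold change of -2.45 (adjusted p = 0.0588, edgeR). With all pools, DESeq2 called 5 stellate and 5 recruited macrophage markers, and limma-voom called 2 and 4. The stellate marker Des had 19.1, 68.1 and 12.5 CPM in control pools 1, 2 and 3. Control pool 2 was also the pool with the most striated muscle transcripts, and a tie to this value was not tested. Without control pool 2 and Mttp-IKO pool 3 together, 6 stellate and 7 recruited macrophage markers passed, Gpnmb among them (log2 fold change -3.08, adjusted p = 0.0125, edgeR). That fit called 2146 of 17444 genes. The part of these cell types in the annexin values was not tested.

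Of 6 hepatocyte markers, none passed by edgeR (4 at an unadjusted p under 0.05, 3 by DESeq2), and their sum was 51330 to 84287 CPM in controls and 100634 to 156528 CPM in Mttp-IKO, so that the liver label held in every pool. Of 6 cholangiocyte markers, which bear on Anxa3 and Anxa4, none passed by edgeR (2 at an unadjusted p under 0.05, 1 by DESeq2), with sums of 32.1 to 52.2 CPM and 23.2 to 44.2 CPM. Endothelial markers (0 of 5 passing by edgeR or DESeq2, 0 at an unadjusted p under 0.05) summed to 292 to 350 CPM and 304 to 355 CPM, and Kupffer cell markers (1 of 5 passing, Timd4) to 288 to 426 CPM and 222 to 552 CPM. The sums of neutrophil markers overlapped between the groups, at 2.63 to 9.40 CPM and 2.88 to 9.32 CPM, and so did those of T cell markers, at 3.24 to 6.37 CPM and 1.76 to 3.29 CPM. B cell markers summed to 2.70 to 3.16 CPM in controls and 0.671 to 1.29 CPM in Mttp-IKO, and mesothelial markers to 10.02 to 20.3 CPM and 5.96 to 14.99 CPM. Small intestine markers, which bear on Anxa13, summed to 33.3 to 41.4 CPM and 8.85 to 31.6 CPM, nearly all from Fabp2, while pancreas markers summed to 5.65 to 6.40 CPM and 2.94 to 5.06 CPM. No marker of these last 6 lists passed by edgeR (1 T cell and 2 B cell markers at an unadjusted p under 0.05, and 2 B cell markers by DESeq2), and their part in the annexin values was not tested. Without control pool 2 and Mttp-IKO pool 3 together, edgeR called 3 hepatocyte markers (Alb, Apoa1 and Hnf4a) and 1 cholangiocyte marker (Epcam). It also called 1 endothelial marker (Lyve1) and 3 Kupffer cell markers (Timd4, Cd5l and Marco), and none of the other 6 lists. With all pools, the fitted change was positive for Alb, Apoa1, Hnf4a, Timd4 and Marco. For Epcam, Lyve1 and Cd5l it was negative.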

How the data were processed

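RNA-Seq was performed on ribosomal RNA-depleted liver RNA from 3 control and 3 Mttp-IKO pools, assigned from the labels. For every pool, the authors deposited a read count per gene (41388 genes), obtained with STAR 2.5.1a and featureCounts 1.4.6-p5 (Subread) on GRCm38 from uniquely aligned, unambiguous reads; use of the strand is not stated. The authors also deposited CPM and RPKM values computed from these counts, and a joint table with symbols and biotypes for 40481 genes, from which 276 repeated lines were dropped. Reads with several equally good places were not counted, which lowers near-identical genes.

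Genes were kept by filterByExpr (minimum count 10, minimum total 15), scaled by TMM (factors 0.898 to 1.11) and compared by edgeR 4.0.16 (glmQLFit and glmQLFTest in R 4.3.3), the p-values of 17287 genes being adjusted by the Benjamini-Hochberg method, with a threshold of 0.05. The study names no tool for differential expression. CPM in the text is TMM-scaled, and RPKM divides it by exon length. Named genes were all members, the partner genes that passed or were most abundant per length, and S100a10 for its ratio. The 3 genes nearest to Anxa2 and to Anxa5 with an average log2 CPM of at least 1 (prior count 2) were named too. Single marker genes are named where their list differed. Partner genes named outside this rule include S100a4, S100a6, Fpr2, Fpr3, Trim72, Dysf, Mertk and the annexins that are not members. The members and lists were chosen with earlier results of these data known. Alternatives were DESeq2 1.42.0 and limma-voom (limma 3.58.1), other scalings, filters and thresholds, robust dispersion, protein-coding genes only, removal of a length trend (span 0.3), the replicate number as a block, and leaving out pools. The fit was tested on simulated data. No pair of pools of the same group was alike within sampling noise. Plots were made with matplotlib 3.10.9 (Python 3.11.15).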

Additional observations from a re-analysis of the deposited data

How the results depend on the processing

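With 3 pools a side, 1 pool often decides a call. The number of annexins called was 2 under other scalings, filters, limma-voom and a threshold of 0.1, and 4 under DESeq2 (Anxa1, Anxa2, Anxa3 and Anxa5). It ranged from 0 to 3 with 1 pool left out, being 0 by edgeR without control pool 1, control pool 3 or Mttp-IKO pool 2 (2, 3 and 2 at an unadjusted p under 0.05). Over all genes, those fits called 24 of 17652, 21 of 17869 and 0 of 17873 (2476, 2539 and 3221 at an unadjusted p under 0.05). Partner genes called were 6, with 11 under DESeq2 and 0 to 7 with 1 pool left out. Genes called over the table were 694, with 1658 at a threshold of 0.1, 1995 under DESeq2, 428 under limma-voom and 0 to 892 with 1 pool left out. Without control pool 2 and Mttp-IKO pool 3 together, chosen after seeing the data, 3 annexins, 16 partners and 2146 genes were called. The causes of these differences were not tested.

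Scaling by total counts moved the median log2 fold change of all genes from 0.01 to -0.17 and the share of calls that were lower from 77.1% to 89.0%, and Anxa11 reversed to -0.11. Anxa13, with low counts, ranged from -0.76 to 0.12 with 1 pool left out (0.12 without control pool 1, 0.11 without Mttp-IKO pool 1), and the Anxa1 to S100a11 log2 ratio difference ranged from -0.61 to 0.17 with 1 pool left out. Anxa1 and Anxa5 kept negative changes under all 18 alternatives, with log2 fold changes of -2.15 to -1.77 and -1.66 to -1.32 and adjusted p of 2.50e-08 to 0.0998 and 1.61e-06 to 0.109. Anxa4, Anxa6 and Anxa7 passed under none of the 18. Anxa13 was not tested among protein-coding genes.

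Nothing in the labels says that the replicate numbers mark a shared litter or day, so they were not taken as pairs. Deviations of pools with the same replicate number correlated at 0.139, 0.112 and 0.00698 over 17287 genes. Of 6 pools, 5 correlated best with their own number. With the replicate number as a block 3 annexins were called, Anxa2 joining at a log2 fold change of -1.88 (adjusted p = 0.0348, edgeR). The block fit also called 592 genes and 6 partners, among which Trim72 took the place of Timd4. Trim72 had 59, 238 and 25 reads in control pools and 8, 34 and 6 in Mttp-IKO pools. Its log2 fold change went from -2.38 to -1.02 without control pool 2 (adjusted p = 0.491, edgeR without a block).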

Other observations

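The remaining annexin genes of the deposited table did not pass the same test (0 of 2 testable genes by edgeR, by DESeq2 or at an unadjusted p under 0.05). Anxa8, an annexin of squamous epithelium, had 1.02, 2.5 and 1.44 CPM in controls against 2.80, 3.53 and 0.671 CPM in Mttp-IKO (log2 fold change 0.51, SE 0.581, adjusted p = 0.636, edgeR), with the highest and the lowest pool both Mttp-IKO; without control pool 2 and Mttp-IKO pool 3 together it passed (log2 fold change 1.36, adjusted p = 0.0394, edgeR), with the remaining Mttp-IKO pools above the remaining controls. Anxa9, an atypical annexin with altered calcium-binding sites, had 4.00 ± 0.523 CPM in controls and 3.49 ± 0.573 CPM in Mttp-IKO (SD, n = 3; log2 fold change -0.20, SE 0.237, adjusted p = 0.657, edgeR). Anxa10 had 2, 0 and 4 reads in control pools and 0 in each Mttp-IKO pool and was not tested. The other partner genes without a value in the report did not pass either, among them Dysf, the muscle membrane repair protein dysferlin (log2 fold change 0.27, adjusted p = 0.389, edgeR), and Mertk, the efferocytosis receptor of macrophages (log2 fold change -0.25, adjusted p = 0.477, edgeR). Without those 2 pools Mertk passed (log2 fold change -0.55, adjusted p = 0.0356, edgeR).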
